A study of Mus musculus with 2 samples.

Results

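Mir31, Mir203, Mir205 and Mir802 are 4 miRNA genes known from epithelial cells, and they were chosen by name from the 1973 miRNA genes counted in the intestine of mouse embryos. All 4 had a row in both libraries, and all 4 passed the minimum of 20 counts summed over the libraries. The tissue was intestine of B6NCrl embryos at embryonic day 16.5, labelled as mixed sex and with no treatment named in the labels. The pair of libraries form 1 group of biological replicates, so the levels of the genes and the spread between the pools can be described, but no condition is compared. Replicate 2 was a pool of 41 embryos and held 5680764 counts that lay on the strand of the miRNA gene. For replicate 1 the labels state no number of embryos, but its source name is also mixed sex, and it is called a pool here too. Replicate 1 held 4261976 such counts.

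A microRNA is cut from a hairpin transcript, and 1 arm of the hairpin usually becomes the strand that guides repression of messenger RNAs through its seed, the bases at positions 2 to 8. miR-31 is known from mouse intestinal crypts, where it acts in stem cell proliferation and in regeneration. miR-203 and miR-205 are best known from stratified epithelia such as the epidermis: miR-203 promotes differentiation by repressing the p63 transcription factor, and miR-205 acts in progenitor cells and, with the miR-200 family, represses Zeb1 and Zeb2. miR-802 is known from the epithelium of the small intestine and from liver, kidney and pancreas.

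The hairpins show what was counted at each gene, since a row of the table holds the reads of both arms together. They are taken from RefSeq on GRCm38.p6, the assembly also called mm10, and the capitals mark the mature arms.
Mir203 hairpin: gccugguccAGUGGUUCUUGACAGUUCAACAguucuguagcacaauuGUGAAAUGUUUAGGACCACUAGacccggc
Mir31 hairpin: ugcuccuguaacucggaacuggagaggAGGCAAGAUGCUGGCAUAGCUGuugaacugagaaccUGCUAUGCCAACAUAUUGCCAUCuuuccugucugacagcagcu
Mir205 hairpin: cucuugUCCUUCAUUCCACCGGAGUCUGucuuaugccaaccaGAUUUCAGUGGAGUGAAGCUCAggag
Mir802 hairpin: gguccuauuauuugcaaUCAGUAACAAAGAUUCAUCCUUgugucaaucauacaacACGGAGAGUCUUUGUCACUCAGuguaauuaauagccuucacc

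The arms usually named as the guide strand of each gene show that the 4 genes belong to separate seed families. Capitals mark the seed.
mmu-miR-203-3p: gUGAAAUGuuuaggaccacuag
mmu-miR-31-5p: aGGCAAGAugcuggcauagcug
mmu-miR-205-5p: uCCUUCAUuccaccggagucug
mmu-miR-802-5p: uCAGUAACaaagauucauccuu

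No seed was shared: the 8 mature arms of the 4 genes carried 8 different seeds, and none of these seeds occurred in another of the 1738 mature miRNAs of the RefSeq table. None of the 8 arms was found whole in another of its 1005 hairpins. The longest stretch shared with any other hairpin was 12 bases for Mir31, 11 for Mir203, 14 for Mir205 and 11 for Mir802, and between the 4 genes it was at most 9 bases. These matches were sought in the hairpins of that table only, not in the whole genome. Reads that mapped to several loci, which are outside all gene counts, made up 25.7% of reads in replicate 2 and 26.2% in replicate 1.

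The 4 genes lie on 4 chromosomes, 2 of them inside exons of long noncoding RNAs. Mir31 (chr4:88910557-88910662, minus strand) lies whole within an exon of the long noncoding RNA AL805899.1, which GENCODE M21 marks as a host of small RNAs, and the nearest protein-coding gene is the interferon gene Ifne at 30.4 kb. Mir205 (chr1:193507463-193507530, minus strand) lies whole within an exon of the long noncoding RNA 4631405K08Rik, named Mir205hg in RefSeq. Mir203 (chr12:112130880-112130955, plus strand) overlaps no other annotated gene of GENCODE M21 and lies 3.32 kb from Aspg on the same strand. Mir802 (chr16:93369720-93369816, plus strand) is likewise in no annotated gene and lies 0.691 kb from the long noncoding RNA 1810044K17Rik. Within 100 kb of any of the 4 genes, the single other miRNA gene with a row and a symbol was Mir3073a, 21.6 kb from Mir203, with 15 counts in replicate 2 and 30 in replicate 1.

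All 4 miRNAs were well detected, and Mir203 was by far the most abundant of them. Levels are given in CPM, the gene-strand counts scaled so that all genes of a library sum to 1000000, with exact Clopper-Pearson 95% intervals that cover counting error only. Mir203 had 41663 counts in replicate 2 and 26378 in replicate 1. Scaled to the library, this was 7334 CPM (interval 7264 to 7405) in replicate 2 and 6189 CPM (6115 to 6264) in replicate 1. Its mean level was 6762 ± 810 CPM (SD, n = 2), or 0.676% of the gene counts, which placed it at rank 31 of all genes. A miRNA known best from skin therefore ranked among the more abundant genes of both libraries, at rank 29 in replicate 2 and rank 33 in replicate 1.

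Mir31, the crypt-associated gene, had 7539 counts in replicate 2 and 4904 in replicate 1. Its level was 1327 CPM (1297 to 1357) in replicate 2 and 1151 CPM (1119 to 1183) in replicate 1, with a mean of 1239 ± 125 CPM (SD, n = 2) at rank 86. Like Mir203 it was the higher of its pair in replicate 2. Mir205, the progenitor gene of stratified epithelium, had 3886 counts in replicate 2 and 3577 in replicate 1. Its level was 684 CPM (663 to 706) in replicate 2 and 839 CPM (812 to 867) in replicate 1, with a mean of 762 ± 110 CPM (SD, n = 2) at rank 104. Mir205 was the one gene of the 4 with the lower level in replicate 2. Mir802, the gene of gut and liver epithelium, had 2977 counts in replicate 2 and 1812 in replicate 1. Its level was 524 CPM (505 to 543) in replicate 2 and 425 CPM (406 to 445) in replicate 1, with a mean of 475 ± 69.9 CPM (SD, n = 2) at rank 122. The least abundant of the 4 thus still stood far above the limit of 3 counts, which is 0.528 CPM in replicate 2 and 0.704 CPM in replicate 1.

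**Figure D1:**
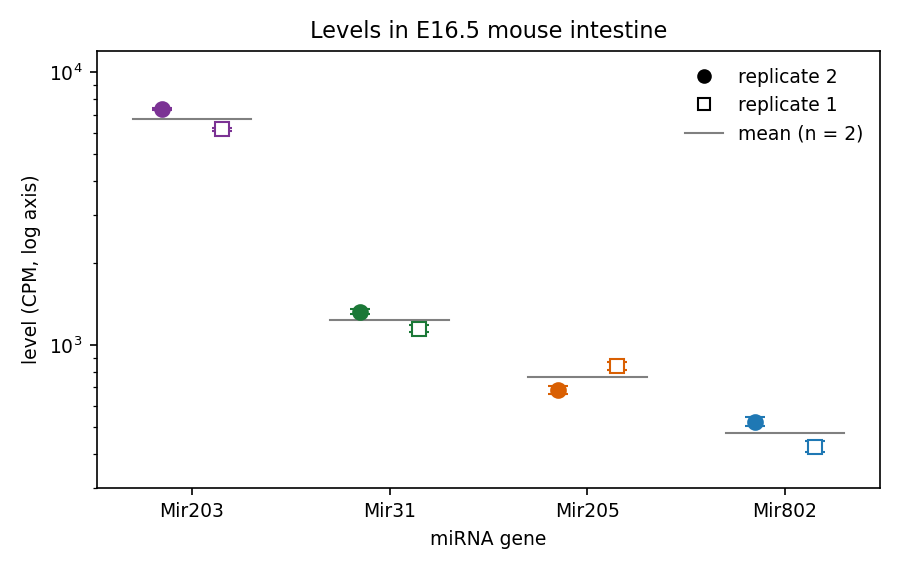
Level of each gene in CPM on a log axis, with replicate 2 as filled circles, replicate 1 as open squares, exact 95% counting intervals as bars and the mean as a grey line. Mir203 sits at 7334 and 6189 CPM, above the other genes, and Mir205 is the one gene with its lower value in replicate 2.

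The order Mir203, Mir31, Mir205, Mir802 was the same in both libraries, and no neighbours in it overlapped. Ratios of counts within a library are free of any scaling between libraries, although a sequence bias that both libraries share would stay in them and was not tested. Mir203 had 5.53 times the count of Mir31 in replicate 2 (interval 5.39 to 5.66) and 5.38 times in replicate 1 (5.22 to 5.55). This ratio was nearly the same in both pools, at 5.45 ± 0.104 (SD, n = 2). Mir31 had 1.94 times the count of Mir205 in replicate 2 (1.87 to 2.02) and 1.37 times in replicate 1 (1.31 to 1.43). Mir205 had 1.31 times the count of Mir802 in replicate 2 (1.24 to 1.37) and 1.97 times in replicate 1 (1.87 to 2.09). Both ratios that involve Mir205 therefore varied widely, with means of 1.66 ± 0.402 and 1.64 ± 0.473 (SD, n = 2), and they exceeded 1 by only 1.63 and 1.35 times their SD.

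Ratios that leave out Mir205 moved little between the pools. Mir31 had 2.53 times the count of Mir802 in replicate 2 and 2.71 times in replicate 1, a mean of 2.62 ± 0.123 (SD, n = 2). Mir203 had 14.0 times the count of Mir802 in replicate 2 and 14.6 times in replicate 1. By contrast Mir203 had 10.7 times the count of Mir205 in replicate 2 (interval 10.4 to 11.1) and 7.37 times in replicate 1 (7.12 to 7.64). The 2 genes known from stratified epithelium thus did not keep a fixed proportion between the pools.

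Together the 4 genes held 0.987% of the gene counts in replicate 2 and 0.860% in replicate 1, a mean of 0.924% ± 0.0895 (SD, n = 2). Mir203 supplied 74.3% of that sum in replicate 2 and 71.9% in replicate 1. The sum is therefore mainly a statement about Mir203.

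**Figure D2:**
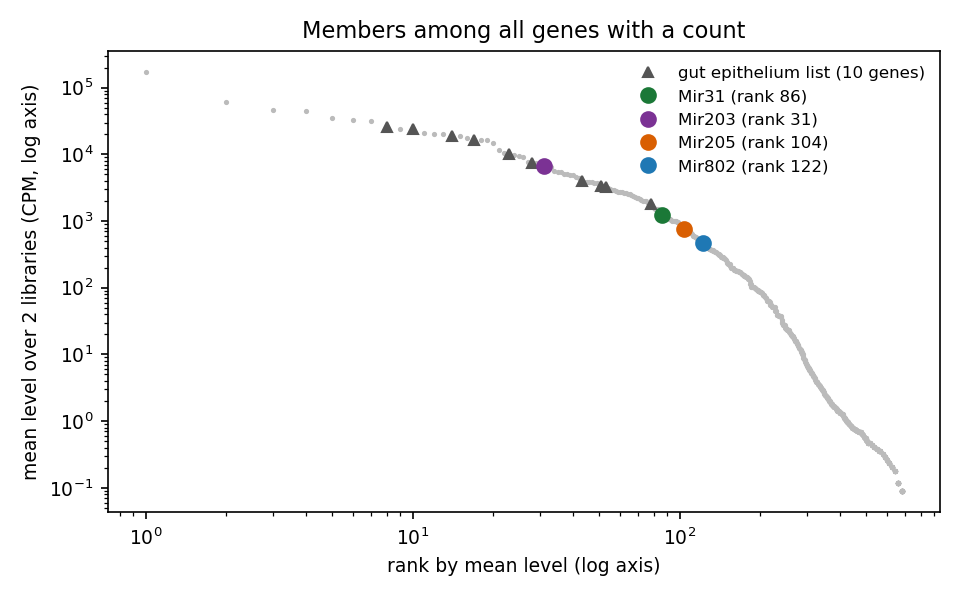
Mean level in CPM against rank for all genes with a count, both on log axes, with the 4 genes as coloured circles and the 10 genes of a gut epithelium list as triangles. Mir203 at rank 31 lies among the triangles, and Mir31, Mir205 and Mir802 at ranks 86, 104 and 122 lie below all of them.

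Markers of intestinal epithelium, against which the labelled tissue was checked, were all present. The gut epithelium list held the miR-200 family that maintains epithelial identity (Mir200a, Mir200b, Mir429, Mir200c, Mir141), the genes of the intestinal miR-192 and miR-194 clusters (Mir192, Mir194-1, Mir194-2, Mir215) and the endocrine Mir375. All 10 had counts in both libraries and they summed to 11.6% ± 1.06 of the gene counts (SD, n = 2). Its 4 most abundant members were Mir429 (25905 ± 1936 CPM), Mir215 (23894 ± 7648 CPM), Mir200c (19151 ± 352 CPM) and Mir375 (16685 ± 1355 CPM), and its least abundant was Mir200a (1831 ± 150 CPM). Of the 4 genes described here, Mir203 lay within the range of that list and the other 3 lay below it.

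Other cell types were represented to different degrees, and the lists give the context in which miR-205 and miR-802 were counted. The stratified epithelium list consists of Mir203, Mir205 and Mir184, a miRNA known from cornea and other stratified epithelia. Mir184 stood at 20.2 CPM in replicate 2 and 17.4 CPM in replicate 1, far below Mir203 and Mir205. Smooth muscle and mesenchyme markers held 18.2% ± 0.561 of the gene counts, of which Mir143 alone made up 95.5%, and endothelium (Mir126a) held 3.22% ± 0.198. The neural list held 0.155% ± 0.0170, blood 0.139% ± 0.0140, liver (Mir122) 0.0721% ± 0.0386, multiciliated epithelium 0.0442% ± 0.000778, skeletal and cardiac muscle 0.0110% ± 0.00157 and pancreas 0.00032% ± 0.00022 (SD, n = 2 each). The neural value rested on Mir137, which made up 99.6% of it. Of the 7 neural genes listed, 6 had a row, and Mir124a-2, Mir124a-3 and Mir9-2 had 0 counts in both libraries. Their mature miRNAs are made from several loci, and reads with several matching loci do not enter any gene count, so these zeros do not show low expression. Mir449b and Mir449c of the multiciliated list also had 0 counts in both libraries. In bulk tissue, fewer cells of a type and less RNA per cell cannot be told apart.

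**Figure D3:**
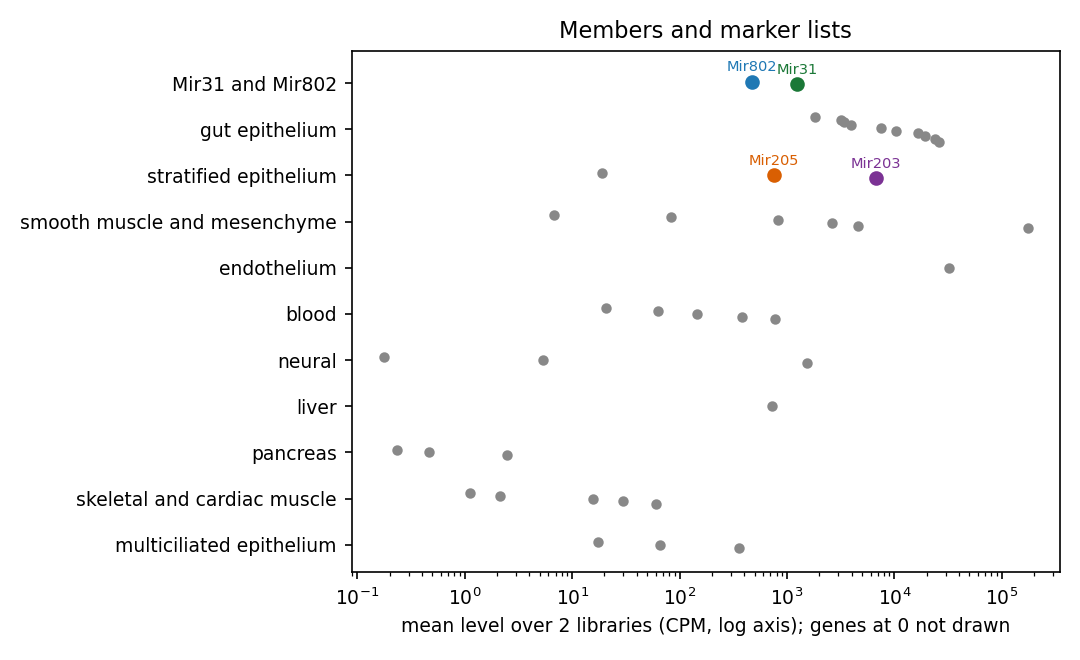
Mean level in CPM on a log axis for Mir31 and Mir802 and for each detected gene of the marker lists, 1 point per gene, with the 4 genes coloured and named. In the stratified epithelium row Mir203 and Mir205 stand at 6762 and 762 CPM and the third point, Mir184, at 18.8 CPM.

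Between the pools, Mir802, Mir203 and Mir31 were higher in replicate 2 and Mir205 was lower. With TMM scaling, which sets the bulk of genes equal, the log2 ratio of replicate 2 to replicate 1 was 0.43 for Mir802 (interval 0.35 to 0.52), 0.37 for Mir203 (0.35 to 0.40), 0.34 for Mir31 (0.28 to 0.39) and -0.17 for Mir205 (-0.23 to -0.10). An exact conditional binomial test (two-sided, Benjamini-Hochberg adjusted over 364 genes) gave an adjusted p of 3.13e-23 for Mir802, 4.56e-241 for Mir203, 2.54e-36 for Mir31 and 3.15e-06 for Mir205. The test sets a ratio against counting error only and compares 2 libraries, not conditions, so passing it is common: 51.9% of the 364 genes passed, 24.5% higher in replicate 2 and 27.5% higher in replicate 1. At a minimum of 100 counts summed, 174 of 287 genes passed, and the counts of the 4 genes lie far above that minimum. All 4 genes passed, 3 of them higher in replicate 2. Their median log2 ratio was 0.35, against -0.02 for all 364 genes.

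Scaling by total counts in place of TMM lowered every log2 ratio by 0.13 and changed the numbers of genes higher in replicate 2 and in replicate 1 to 46 and 164, against 89 and 100 with TMM. Under total counts the log2 ratios were 0.30 for Mir802, 0.24 for Mir203, 0.21 for Mir31 and -0.30 for Mir205. None of the 4 directions changed under any scaling tried.

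Genes of a similar level give a scale for these ratios that does not rest on counting error. Of the 50 other tested genes within 2-fold of the level of Mir802, none had a higher log2 ratio than Mir802, and the highest among them was 0.26. In absolute size 2 of the 50 had a larger ratio, and the lowest log2 ratio among them was -1.02. Of the 30 genes within 2-fold of Mir203, 2 had a higher ratio, and 2 a larger one in absolute size. Of the 44 within 2-fold of Mir31, 2 had a higher ratio, and 5 a larger one in absolute size. Mir205 lay closer to its surroundings: of 46 genes within 2-fold of its level, 9 had a lower ratio and 37 a higher one. In absolute size, 19 of those 46 genes had a larger ratio than Mir205. These counts describe the 2 libraries, and neighbouring windows share genes.

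**Figure D4:**
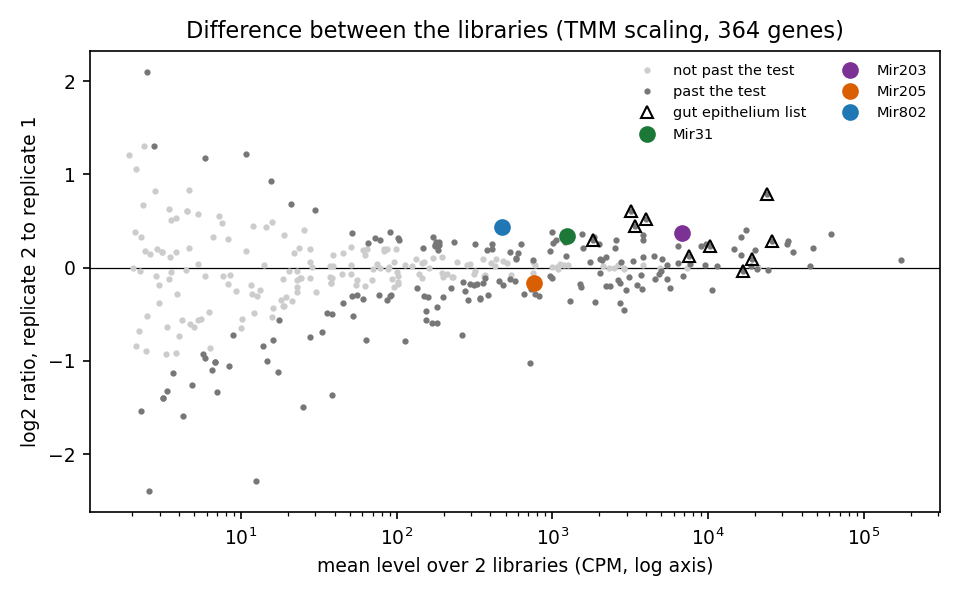
Log2 ratio of replicate 2 to replicate 1 with TMM scaling against mean level in CPM on a log axis for 364 genes, with dark points past the exact test, triangles for the gut epithelium list and coloured circles for the 4 genes. Mir802, Mir203 and Mir31 lie at 0.43, 0.37 and 0.34 among the upper points of their level, and Mir205 lies at -0.17.

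The gut epithelium list moved in the direction of Mir802, Mir203 and Mir31. Of its 10 genes, 9 were higher in replicate 2 and 1, Mir375, was lower (log2 ratio -0.04), and the median log2 ratio was 0.29. Over all 364 tested genes, 24.5% were higher in replicate 2 and 27.5% were lower. With total counts 7 of the 10 genes were higher, 2 were lower and 1 did not pass, with a median of 0.16. Under that scaling 46 of all 364 tested genes were higher and 164 were lower. The summed level of the list was 123320 CPM in replicate 2 and 108378 CPM in replicate 1. The mature miRNA of Mir194-1 is also that of Mir194-2, so their separate counts are uncertain.

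Set against that sum with Mir215 in it, Mir31 and Mir203 were almost constant between the pools and Mir205 was not. The genes of the list did not move alike, with log2 ratios from -0.04 for Mir375 to 0.79 for Mir215. Mir215 stood at 29302 CPM in replicate 2 and 18486 CPM in replicate 1, so the ratios below depend on its place in the sum. Ratios to the list without Mir215 were not tested. Mir31 counts equalled 1.08% of the summed gut epithelium counts in replicate 2 and 1.06% in replicate 1, a log2 ratio of 0.02. Mir203 counts equalled 5.95% in replicate 2 and 5.71% in replicate 1, a log2 ratio of 0.06. Both ratios were several times smaller than the same genes' ratios under TMM, but only the sum with Mir215 was used. Under total counts the median log2 ratio of the list was 0.16, with 0.21 for Mir31 and 0.24 for Mir203. Mir802 counts equalled 0.425% in replicate 2 and 0.392% in replicate 1, a log2 ratio of 0.12. Mir205 counts equalled 0.555% in replicate 2 and 0.774% in replicate 1, a log2 ratio of -0.48. Mir205 was thus the one gene of the 4 that was lower in replicate 2 relative to the gut list, and the part that the amount of epithelium in each pool had in these values was not tested.

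**Figure D5:**
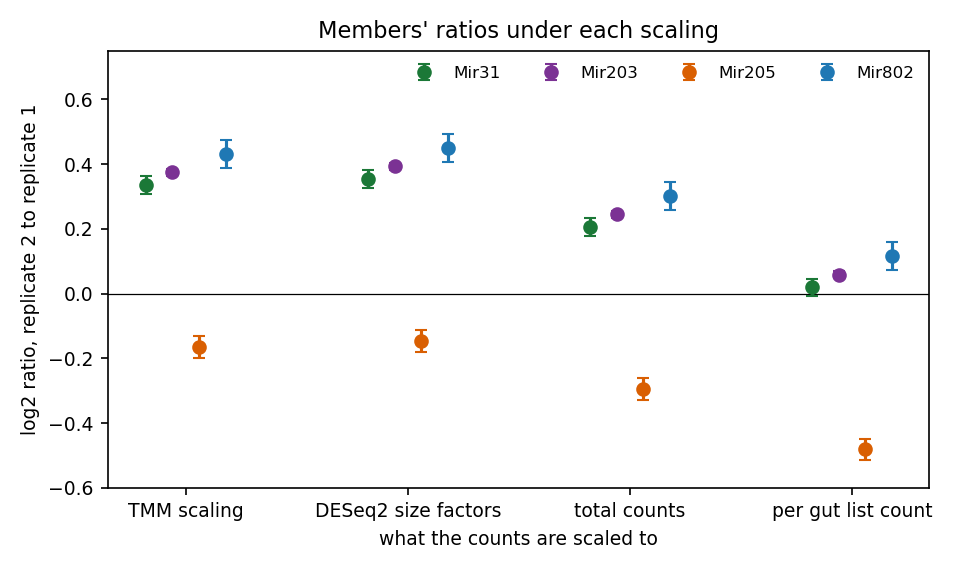
Log2 ratio of replicate 2 to replicate 1 for each gene with counts scaled by TMM, by DESeq2 size factors, by total counts or by the summed counts of the gut epithelium list, with bars of 1 counting standard error of the gene's own counts. Mir31 and Mir203 fall close to 0 in the last column (0.02 and 0.06), where Mir205 lies at -0.48. The values of that column depend on Mir215, which is part of the sum.

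Markers of other tissues and cell types are given here beside the ratios of the 4 genes. Higher levels in replicate 2 were not limited to epithelial markers. With TMM, Mir126a of endothelium (log2 ratio 0.26) and Mir137 (0.36), 1 of 2 tested neural genes, were higher. Of 4 tested skeletal and cardiac muscle genes, 2 were higher and 2 did not pass. Of 5 blood genes, 1 was higher, 1 lower and 3 did not pass. Mir217 of the pancreas list was higher, on 23 and 4 counts. Mir122, the hepatocyte miRNA, stood at 448 CPM in replicate 2 and 994 CPM in replicate 1, with a log2 ratio of -1.02. Mir802, known from liver as well as gut, went the other way, with 1.17 counts per Mir122 count in replicate 2 and 0.428 in replicate 1. For Mir205, the other member of the stratified list outside these 4 genes, Mir184, had 115 counts in replicate 2 and 74 in replicate 1 and did not pass the exact test (log2 ratio 0.35, adjusted p = 0.172). The smooth muscle and mesenchyme list, with a median log2 ratio of -0.13, had 4 of 6 genes lower in replicate 2, 1 higher and 1 that did not pass. The higher one was Mir143 (log2 ratio 0.08), which holds most of the list's counts, and one of the lower ones, Mir199a-1, had only 24 counts in replicate 2 and 40 in replicate 1 and shares its mature miRNA with Mir199a-2. Under total counts 5 were lower, Mir143 among them, and 1 did not pass. Over all 364 tested genes, 24.5% were higher and 27.5% lower in replicate 2 with TMM. Under total counts, 46 of the 364 were higher and 164 lower. What part liver, stratified epithelium, mesenchyme or any other cell type had in the ratios of the 4 genes was not tested.

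The genes nearest to each of the 4 by level over both libraries were found as the smallest Euclidean distance of log2(CPM + 1), a likeness that rests on 2 values per gene. Nearest to Mir31 were Mir96 (distance 0.08), Mir337 (0.15) and Mir532 (0.22). Nearest to Mir203 were Mir30a (0.15), Mir487b (0.24) and Mir192 (0.28). Mir205 had the closest matches, Mir181a-1 (0.04), Mir615 (0.08) and Mir433 (0.09), whose log2 ratios of replicate 2 to replicate 1 were -0.13, -0.06 and -0.28. The distance uses the same 2 values as the ratio, so close matches must have ratios near that of Mir205. Mir181a-1 has a copy with the same mature miRNA elsewhere, so its count is uncertain. Nearest to Mir802 were Mir363 (0.26), Mir25 (0.29) and Mir503 (0.31), and the highest log2 ratio among these 3 was 0.09. The matches of Mir802 were thus the most distant of the 4 genes.

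Nearly all reads at the 4 genes fell in the column taken as the strand of the gene, with a small number outside it at Mir203. The tables do not name their columns, and the one that held over 96.2% of the unstranded counts in both libraries was taken as the gene strand. Mir31, Mir205 and Mir802 had 0 counts on the opposite strand in both libraries, which allows up to 3 counts each. Mir203 had 92 opposite-strand counts in replicate 2 and 73 in replicate 1, or 0.220% (exact interval 0.178 to 0.270) and 0.276% (0.216 to 0.347) of the reads at its locus. RefSeq places a second hairpin there, Gm51289 with the synonym Mir203b, on the minus strand (chr12:112130887-112130946). Its sequence is shown because it is the exact reverse complement of bases 8 to 67 of the Mir203 hairpin printed above. Capitals mark its mature arms.
Gm51289 hairpin: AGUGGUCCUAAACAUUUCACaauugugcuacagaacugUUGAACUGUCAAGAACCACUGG

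Gm51289 had no row of its own under that symbol, so its reads were not counted as a gene here. The opposite-strand reads corresponded to 16.2 CPM in replicate 2 and 17.1 CPM in replicate 1, close to the level of Mir184. Which arm or hairpin they came from was not tested.

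The hairpins differed in length, base composition and predicted stability, none of which followed the order of the levels throughout. The Mir203 hairpin had 76 bases and a predicted folding energy of -35.1 kcal/mol, Mir31 106 bases and -48.7 kcal/mol, Mir205 68 bases and -33.8 kcal/mol, and Mir802 97 bases and -30.8 kcal/mol. GC content was 48.7% for Mir203, 50.0% for Mir31, 50.0% for Mir205 and 38.1% for Mir802. Mir802, the least abundant, thus had both the lowest GC content and the weakest predicted fold of the 4.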

How the data were processed

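Short RNA was sequenced from 2 intestine samples of 1 group. Per the readme of each library, the authors deposited unnormalized counts of reads for each miRNA gene on mm10 with GENCODE M4. The aligner, counter and read trimming were not given in the sources used here. The tables hold unstranded, gene-strand and opposite-strand counts for 1973 genes, without column names. The unstranded column was the one that the other columns summed to in every gene row. Of those, the one with 96.3% and 96.2% of its counts in replicates 2 and 1 was taken as the gene strand, and no header states this. The 4 leading rows name no gene and were left out of totals: unmapped reads (17.2% and 19.5% of reads in replicates 2 and 1), reads at several loci (25.7% and 26.2%), reads outside miRNA genes (2.88% and 3.69%) and ambiguous reads (0).

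Gene-strand counts were scaled to CPM. Symbols and coordinates were those of GENCODE M21, also on mm10, where 1894 of 1973 identifiers were found, and sequences from RefSeq (GRCm38.p6), where all 4 genes matched. With 1 library on a side edgeR's quasi-likelihood test could not be fitted, so counts of replicates 2 and 1 were compared by an exact conditional binomial test over genes with at least 20 counts summed, using library sizes scaled by TMM in edgeR 4.0.16, Benjamini-Hochberg adjustment at 0.05 and a prior of 0.5 counts in log2 ratios. The test was checked on simulated counts that held set fold changes and counting error only, with total counts as library sizes. That check does not cover spread between pools or TMM scaling. Folding used RNAfold 2.7.2. Other tools were R 4.3.3, DESeq2 1.42.0, Python 3.11.15, numpy 2.4.6, scipy 1.17.1 and pandas 2.3.3.

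The 4 genes, the lists and the tests were chosen with earlier results of these data known. Ratios between genes other than neighbours in level, ratios to the gut epithelium list and to Mir122, 2-fold level windows and sequence properties were added after the counts were seen. Besides the 4 genes, genes were named by rule: the 3 nearest in level to each, miRNA genes within 100 kb, and up to 4 of a list by mean CPM. Mir200a, Mir194-1, Mir194-2, the marker genes at 0 counts and Mir199a-1 with its copy are named outside that rule. Alternatives were unstranded counts, other totals, each library alone, total counts or DESeq2 size factors, other count minimums (1 and 100) and a 1.5-fold minimum.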

Additional observations from a re-analysis of the deposited data

Results flagged for a closer look

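The opposite-strand column, which the levels do not use, held reads at Mir203 above the limit of 3 counts: 92 in replicate 2 and 73 in replicate 1. Of the 364 tested genes, 11 had more than 3 such counts in both libraries, and 326 had none in either library. A larger opposite-strand share than that of Mir203 in both libraries was found at 10 of the 364, whatever their counts. The median share was 0% in both. With 2 libraries no check for a sample far from the others was possible.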

How the results depend on the processing

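Over the 72 values recomputed under an alternative, 57 were labelled the same and 15 moved. Levels and ratios between genes were the same if within the spread of the replicates, and replicate ratios if direction and call stayed. Counts of genes have neither measure. Those labelled the same still changed, for example from 100 to 77 genes higher in replicate 1 with a count minimum of 1. Some of the 57 could not have moved. With 2 libraries, each library alone always lies within 1 SD of the mean. Unstranded counts cannot change ratios among Mir31, Mir205 and Mir802, which had 0 opposite-strand counts. All 20 replicate ratios of the 4 genes kept direction and call, from 0.30 to 0.47 for Mir802, 0.24 to 0.41 for Mir203, 0.21 to 0.38 for Mir31 and -0.30 to -0.13 for Mir205. Divided by all mapped reads, the levels were 4186 for Mir203, 767 for Mir31, 469.7 for Mir205 and 294 for Mir802 (per 1000000 mapped reads), and the summed share 0.572%. Without Mir143, the gene with the highest level, in the total, they were 8181, 1499, 922 and 574 CPM and 1.12%. Both follow from the changed total, which cannot alter the order of the 4 genes within a library. Under total counts 46 genes were higher in replicate 2 and 164 in replicate 1. With at least a 1.5-fold difference 40 genes passed, 9 higher in replicate 2 and 31 in replicate 1, and none of the 4 genes reached that size. No paired analysis was possible because there is 1 group. Intervals cover counting error only, since copies made by PCR could not be told apart.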
